A study of Homo sapiens with 23 samples.

Results

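The 10 genes described here are 3 ligands and 7 receptors of the tumour necrosis factor (TNF) superfamily, among 28105 genes with a row in the deposited tables. They were selected on their read counts and on their changes in each knockout against its own group, and listed by name, and each is represented by the RefSeq transcript row with the highest mean read count. The ligands are TNFSF4, TNFSF9 and TNFSF10, and the receptors are TNFRSF6B, TNFRSF1A, TNFRSF10A, TNFRSF10D, TNFRSF11B, TNFRSF12A and TNFRSF21. Polyadenylated RNA was sequenced from HCT116, a human colon cancer cell line grown in McCoy's medium with serum, in 4 groups of 2 libraries. Cells labelled MLL4 KO were set against cells labelled WT, and cells labelled BAP1 KO against a separate group labelled control, which carries the genotype label WT too. MLL4, the product of KMT2D, is a histone methyltransferase that marks enhancers with H3K4me1, and BAP1 is a deubiquitinase that removes ubiquitin from histone H2A. How the knockouts were made, whether a line is 1 clone, and whether replicates are separate cultures are not given in the labels, so p-values cover no more than the spread among these libraries. The deposited tables of the control and BAP1 KO libraries carry osTir1F74G in their names, a variant of a plant auxin receptor used for induced protein degradation, which the labels do not mention. Whether BAP1 KO stands for a gene knockout or an induced degradation is therefore not settled by the labels. The 15 ChIP-seq samples of the series were not analysed here.

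TNF superfamily ligands are trimeric, mostly membrane-bound proteins, and their receptors pass the signal on through cytoplasmic adaptors. Receptors with a death domain can recruit caspases and start apoptosis, or recruit ubiquitin enzymes and start NF-kB signalling. Decoy receptors bind a ligand without passing on a death signal. In epithelial cancer cells the family is known for control of cell death by TRAIL, FAS ligand and TNF, while several of the ligands act as costimulators of T cells.

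Counts over genes ranged from 24.8 to 42.2 M (M, 1e6 reads) per library. Of the 16831 genes tested with edgeR's quasi-likelihood test (Benjamini-Hochberg adjusted p under 0.05), 3219 were called in MLL4 KO against WT and 3778 in BAP1 KO against control. Control against WT gave 6662 calls, although both groups are labelled WT, so each knockout is set against its own group throughout. The difference between the knockout effects passed the same test for 16.1% of all tested genes. The control libraries differed less from each other than the WT libraries did, with a median absolute log2 difference per gene of 0.0822 for control and 0.233 for WT. KMT2D mRNA was not lower in the libraries labelled MLL4 KO (log2 fold change 0.01 ± 0.18 SE, adjusted p = 0.97), and BAP1 mRNA was not lower in those labelled BAP1 KO (0.07 ± 0.13 SE, adjusted p = 0.746). The mRNA levels therefore do not check the labels. The 8 colon epithelial markers summed to 5350 to 5360 CPM in MLL4 KO libraries and 3650 to 3690 CPM in WT libraries, and to 2900 to 3380 CPM in BAP1 KO libraries and 5530 CPM in both control libraries. Their members did not move one way in MLL4 KO, where 2 of 7 tested were higher (KRT8 at 2950 CPM against 1770 CPM in WT, and KRT18 at 1390 CPM against 689 CPM in WT), 1 was lower (EPCAM at 114 CPM against 248 CPM in WT) and the median log2 fold change was 0.0. In BAP1 KO 6 of 7 were lower, with a median of -0.7. Of all tested genes 9.13% were called higher and 10.0% lower in MLL4 KO, and 10.4% lower in BAP1 KO. CDX1 was at 0 throughout. Of 12 immune, fibroblast and endothelial markers, 10 stayed under 1 CPM in every library. The fibroblast marker COL1A1 did not, with 25.5 to 54.9 CPM, and VWF had 0.406 to 1.45 CPM. The full list summed to 26.6 to 56.8 CPM, and without COL1A1 to 1.12 to 3.58 CPM. The part of these epithelial marker values in the values below was not tested, and in bulk RNA fewer cells of a type and less RNA per cell cannot be told apart.

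TNFRSF6B and TNFSF4 had the largest log2 fold changes among the members, TNFRSF6B in MLL4 KO and TNFSF4 in BAP1 KO. The 250 bases before the RefSeq start of TNFRSF6B, TNFRSF1A and TNFSF4 are shown with those of TNFSF18, the ligand gene next to TNFSF4, and of TNFSF9, whose level stayed within its library spread in both knockouts. Each runs 5′ to 3′ on the strand of its gene, from RefSeq on GRCh38.p14, and capitals mark CpG dinucleotides. The windows are chr20:63696402-63696651 (plus strand), chr12:6342077-6342326 (minus), chr1:173205533-173205782 (minus), chr1:173050942-173051191 (minus) and chr19:6530776-6531025 (plus). The RefSeq span of TNFSF4 is chr1:173172870-173450733, so the TNFSF4 start used here lies inside it and is not its outermost end.
TNFRSF6B: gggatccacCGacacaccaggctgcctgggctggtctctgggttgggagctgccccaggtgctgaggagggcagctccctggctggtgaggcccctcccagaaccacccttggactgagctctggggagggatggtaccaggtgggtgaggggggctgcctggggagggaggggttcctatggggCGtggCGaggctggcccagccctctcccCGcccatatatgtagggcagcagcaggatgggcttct
TNFRSF1A: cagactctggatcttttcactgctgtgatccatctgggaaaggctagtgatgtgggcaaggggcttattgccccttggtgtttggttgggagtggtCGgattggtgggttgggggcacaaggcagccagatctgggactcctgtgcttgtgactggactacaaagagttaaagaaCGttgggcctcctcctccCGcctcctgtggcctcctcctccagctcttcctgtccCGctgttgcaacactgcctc
TNFSF4: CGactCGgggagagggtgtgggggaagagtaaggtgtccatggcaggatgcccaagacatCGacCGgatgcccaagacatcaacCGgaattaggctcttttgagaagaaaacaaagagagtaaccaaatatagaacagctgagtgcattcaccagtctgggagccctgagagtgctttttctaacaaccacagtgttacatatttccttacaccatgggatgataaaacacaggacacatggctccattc
TNFSF18: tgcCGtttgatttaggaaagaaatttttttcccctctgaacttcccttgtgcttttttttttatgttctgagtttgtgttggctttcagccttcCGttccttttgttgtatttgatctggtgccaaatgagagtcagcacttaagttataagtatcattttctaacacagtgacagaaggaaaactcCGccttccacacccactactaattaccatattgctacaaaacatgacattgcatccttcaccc
TNFSF9: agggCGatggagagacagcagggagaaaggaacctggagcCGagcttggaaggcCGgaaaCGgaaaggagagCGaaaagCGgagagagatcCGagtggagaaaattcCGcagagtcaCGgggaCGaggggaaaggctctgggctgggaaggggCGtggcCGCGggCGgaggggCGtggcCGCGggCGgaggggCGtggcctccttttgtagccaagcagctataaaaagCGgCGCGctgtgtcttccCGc

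The windows of TNFRSF6B and TNFRSF1A held 4 CpG each, that of TNFSF4 held 5 and that of TNFSF18 held 3, below the median of 11 over 35116 promoter windows of the same length. The windows of TNFSF9 and TNFRSF21 held 23 and 20. The window of TNFSF10, a gene with almost no reads here, held 2. The table gave a window for 6 of the 10 members. On both strands, the TATA box TATAAA was found in the TNFSF9 window at position -30 (the first base of the match, counted from the start) and in the TNFSF10 window at -31, and in 10.7% of all windows. The GC box GGGCGG was found in the windows of TNFRSF6B at -38, of TNFRSF21 at -52 and of TNFSF9 at -88 and -68, and in 42.6% of all windows. The CCAAT box CCAAT was found in the window of TNFRSF1A at -151 and in 32.0% of all. The AP-1 motif TGANTCA (6.6% of all windows) and the NF-kB motif (10.0%) had no match in these windows, and no match overlapped another. The windows of TNFSF4 and TNFSF18 held none of the 5 motifs. A match or its absence describes only these letters.

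Between genes, levels were compared on the deposited RPKM scale, which divides by transcript length. By mean RPKM over the 8 libraries, TNFRSF6B stood first at 179, TNFRSF12A next at 120 and TNFRSF1A after it at 45.2. TNFRSF10D (18.5), TNFRSF21 (18.0), TNFRSF10A (13.9) and TNFSF9 (11.6) followed, and their ranges over libraries overlapped, from 9.13 to 32.9 RPKM in all. TNFSF4 averaged 1.70 RPKM, TNFSF10 0.0125 and TNFRSF11B 0.00178. The order was not the same in every group. In MLL4 KO libraries TNFRSF6B (316 and 407 RPKM) stood above TNFRSF12A (114 and 152 RPKM), while in WT libraries it stood below it (47.3 and 11.3 RPKM for TNFRSF6B, 90.5 and 110 RPKM for TNFRSF12A). Among 28105 genes TNFRSF6B ranked 137 and 117 by RPKM in MLL4 KO libraries, 1143 and 4874 in WT libraries, 320 and 240 in BAP1 KO libraries and 240 and 225 in control libraries.

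The count filter kept 8 of the 10 members. TNFRSF11B and TNFSF10 were removed. TNFSF4 passed it in MLL4 KO, BAP1 KO and control but not in WT, and the other 7 passed it in all 4 groups. Because the changes in the knockouts were known when the genes were listed, they are given as values with no p. In MLL4 KO against WT 3 of the 8 members were past the threshold (TNFRSF6B and TNFRSF1A higher, TNFRSF10A lower), where 19.1% of all tested genes were. In BAP1 KO against control 3 of 8 were past it (TNFSF4 higher, TNFRSF1A and TNFRSF21 lower), where 22.4% of all tested genes were. The libraries of the groups did not overlap for 5 of 8 members in MLL4 KO (60.3% of all tested genes) and for 7 of 8 in BAP1 KO (72.2%). Nothing is read from these counts. Without MLL4 KO replicate 2, or without either control library, 1 member was past the threshold in MLL4 KO, and without WT replicate 1 there were 5. Leaving out BAP1 KO replicate 1, control replicate 1 or control replicate 2 left 1 past it in BAP1 KO. The median log2 fold change of the 8 members was 0.14 in MLL4 KO and -0.39 in BAP1 KO, against 0.0 and 0.01 over all tested genes.

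**Figure D1:**
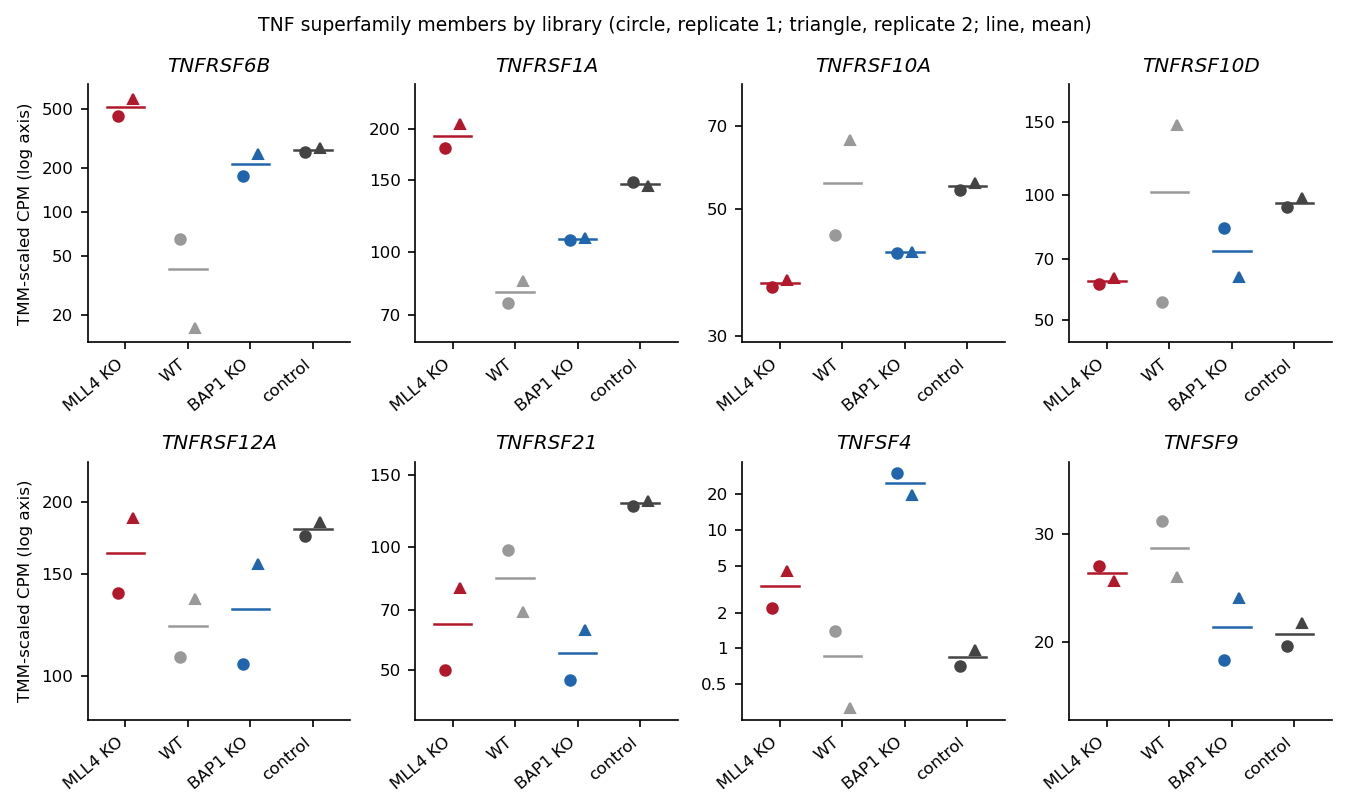
TMM-scaled CPM (log axis, a different range in each panel) of the 8 members above the count filter, by group; circles are replicate 1, triangles replicate 2 and lines the mean of 2. TNFRSF6B reached 448 and 588 CPM in MLL4 KO and TNFSF4 30.2 and 19.6 CPM in BAP1 KO, and the WT libraries lay apart for TNFRSF6B and TNFRSF10D.

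Among the receptors, TNFRSF6B encodes decoy receptor 3, a secreted protein without a membrane anchor that binds FAS ligand (FASLG), TNFSF14 and TNFSF15. It had 448 and 588 CPM in MLL4 KO libraries, against 66.0 and 16.3 CPM in WT libraries. Both MLL4 KO libraries lay above both WT libraries, and the WT libraries lay far apart. The log2 fold change was 3.66 ± 0.64 (SE), and it was 2.97 without WT replicate 2 and 4.98 without WT replicate 1. TNFRSF6B in BAP1 KO libraries had 176 and 247 CPM, against 256 and 273 CPM in control libraries. Both BAP1 KO libraries lay below both control libraries, by a log2 fold change of -0.32 ± 0.57 (SE), which is smaller than its error. The control libraries, also labelled WT, held 264 ± 11.9 CPM and the WT libraries 41.2 ± 35.1 CPM (SD, n = 2 each). Control against WT was not the contrast by which the genes were listed, though it shares their libraries. Listing by a change against WT or control favours a difference between the 2. The p-values of members in control against WT are therefore a description, and nothing is read from them. TNFRSF6B was higher in control than in WT by a log2 fold change of 2.69 ± 0.62 (SE; edgeR adjusted p = 0.0175). That comparison called 39.6% of all tested genes. With control replicate 1 left out the adjusted p was 0.0738, and with control replicate 2 left out it was 0.0802.

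TNFRSF6B lies at chr20:63696652-63698684 inside the readthrough gene RTEL1-TNFRSF6B, and it shares 38 bases with the span of ARFRP1. Reads in the shared exons cannot be assigned to TNFRSF6B or to the readthrough gene, and the strand setting of the counting is not given. In MLL4 KO libraries the readthrough row held 20372 and 19465 reads and the TNFRSF6B row 19702 and 19529, slightly more than the longer row in replicate 2. In WT libraries the readthrough row held 3721 and 3578 reads and the TNFRSF6B row 1702 and 523. RTEL1-TNFRSF6B, which is no member, had 464 and 586 CPM in MLL4 KO libraries and 144 and 112 CPM in WT libraries, a log2 fold change of 2.04 ± 0.18 (SE). That value is a description, because most of its reads in MLL4 KO can be those of the TNFRSF6B row. RTEL1, a DNA helicase that protects telomeres, fell in MLL4 KO with 61.6 and 57.4 CPM, against 90.3 and 104 CPM in WT (-0.71 ± 0.13 SE, adjusted p = 0.0114, 0.0637 without MLL4 KO replicate 2 and 0.0851 in a fit to the 4 libraries alone). RTEL1 and the readthrough gene share their start and most exons. On the RPKM scale RTEL1 had 10.7 and 9.81 in MLL4 KO libraries, where TNFRSF6B had 316 and 407. In WT libraries RTEL1 had 16.0 and 17.8 RPKM and TNFRSF6B 47.3 and 11.3 RPKM. The part of readthrough transcripts in the TNFRSF6B row was not tested.

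STMN3, a microtubule regulator of the stathmin family that starts 43.9 kb before TNFRSF6B, rose in MLL4 KO with 336 and 337 CPM, against 178 and 149 CPM in WT (1.04 ± 0.12 SE, edgeR adjusted p = 0.00338, and 0.0578 in a fit to the 4 libraries alone). ARFRP1, a GTPase of the Golgi, had 38.4 and 39.3 CPM in MLL4 KO and 31.6 and 39.7 CPM in WT, and the libraries overlapped. In BAP1 KO it fell, with 26.9 and 34.5 CPM against 48.1 and 49.3 CPM in control (-0.67 ± 0.16 SE, adjusted p = 0.0167). That call was lost without BAP1 KO replicate 1 or either control library (0.0962 to 0.146 after adjustment). ZGPAT, a zinc finger repressor, was not called in MLL4 KO (-0.42 ± 0.14 SE, adjusted p = 0.0576, and 0.0277 without WT replicate 1) or in BAP1 KO (-0.11 ± 0.14 SE, adjusted p = 0.628). Within 500 kb of the start of TNFRSF6B, 25 other genes were tested, a window chosen after values were seen. In MLL4 KO 4 of them were higher and 1 lower (9.13% and 10.0% of all tested genes), with a median log2 fold change of 0.24, and RTEL1-TNFRSF6B is 1 of those 4. In BAP1 KO 4 were higher and 1 lower (12.1% and 10.4% of all tested genes), with a median of 0.08. HELZ2, named here after its values were seen, was higher in both knockouts (1.37 ± 0.13 SE in MLL4 KO and 0.89 ± 0.13 SE in BAP1 KO).

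**Figure D2:**
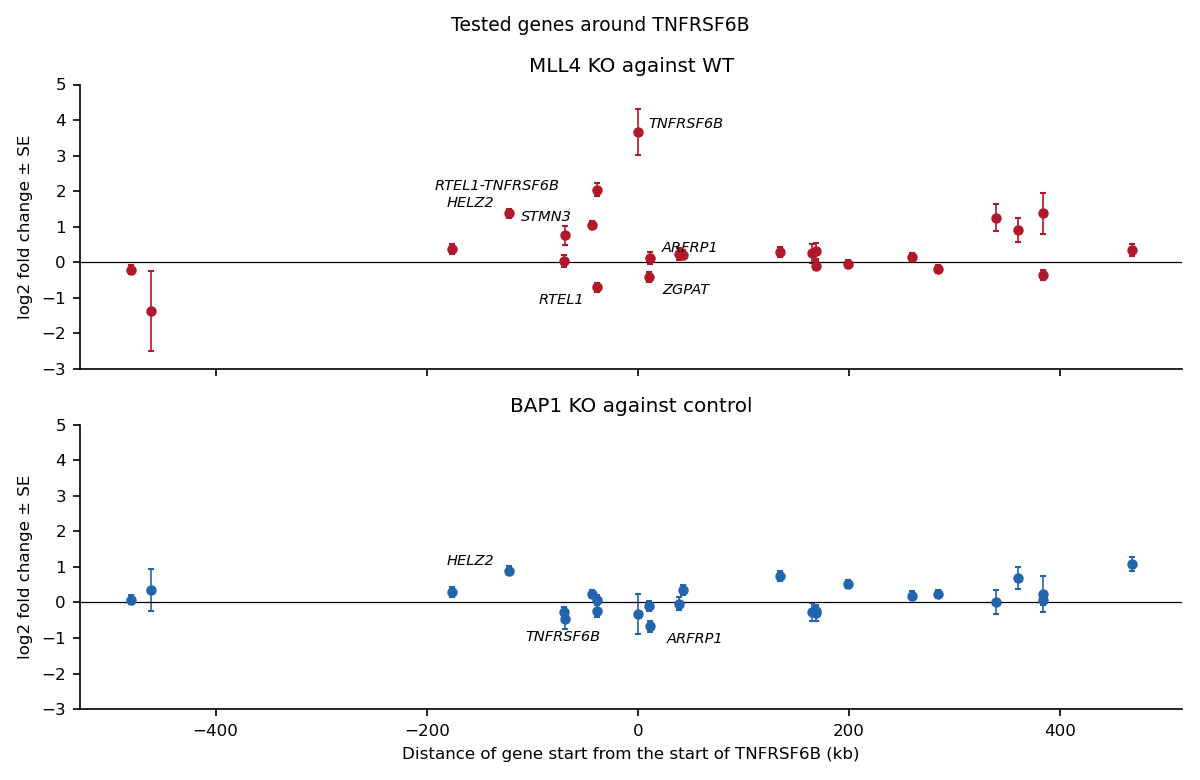
Log2 fold change with SE of the tested genes within 500 kb of the start of TNFRSF6B, by distance in kb, for MLL4 KO against WT (upper panel) and BAP1 KO against control (lower panel); each point is 1 gene. TNFRSF6B (3.66) and RTEL1-TNFRSF6B (2.04) stand highest in the upper panel, where RTEL1 is at -0.71, and TNFRSF6B is at -0.32 in the lower panel.

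TNFRSF1A encodes TNF receptor 1, the death-domain receptor through which TNF signals in most cell types, and lies at chr12:6328771-6342076. It had 179 and 205 CPM in MLL4 KO libraries, against 75.0 and 84.6 CPM in WT libraries. Both MLL4 KO libraries lay above both WT libraries, with means of 192 ± 18.7 CPM in MLL4 KO and 79.8 ± 6.84 CPM in WT (SD, n = 2 each) and a log2 fold change of 1.27 ± 0.12 (SE). In BAP1 KO libraries it had 107 and 108 CPM, against 148 and 145 CPM in control libraries. Both BAP1 KO libraries lay below both control libraries, with a log2 fold change of -0.44 ± 0.12 (SE). The directions were thus opposite in the knockouts, with no overlap of libraries in either, as for 18.5% of all tested genes. Over the alternatives and left-out libraries the change ranged from 1.18 to 1.36 in MLL4 KO and from -0.47 to -0.43 in BAP1 KO. TNFRSF1A was also higher in control than in WT (0.87 ± 0.12 SE, edgeR adjusted p = 0.000661). Its 4 transcript rows gave ratios of mean RPKM of 2.38 to 2.39 for MLL4 KO over WT and of 0.761 to 0.764 for BAP1 KO over control. TNF itself, the ligand of TNFRSF1A, did not pass the count filter.

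The TNFRSF10 genes, which encode receptors for TRAIL, lie in a cluster on chromosome 8. TNFRSF10A encodes TRAIL receptor 1, which has a death domain, and TNFRSF10D encodes a decoy with a truncated one. TNFRSF10A had 36.6 and 37.7 CPM in MLL4 KO libraries, against 45.1 and 66.1 CPM in WT libraries. The MLL4 KO libraries lay below the WT libraries, with a log2 fold change of -0.58 ± 0.17 (SE), which was -0.28 without WT replicate 2 and -0.83 without WT replicate 1. BAP1 KO libraries had TNFRSF10A at 41.9 and 42.2 CPM, against 54.0 and 55.7 CPM in control libraries, again with no overlap (-0.38 ± 0.17 SE). The values of control and WT overlapped (-0.02 ± 0.17 SE, edgeR adjusted p = 0.931).

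TNFRSF10D had 61.1 and 63.0 CPM in MLL4 KO libraries, against 55.1 and 148 CPM in WT libraries. WT replicate 2 was the high one and the groups overlapped, and the log2 fold change of -0.71 ± 0.41 (SE) was 0.17 without WT replicate 2. In BAP1 KO libraries it had 83.1 and 63.3 CPM, against 93.5 and 98.4 CPM in control libraries. Both BAP1 KO libraries lay below the control libraries, by -0.39 ± 0.41 (SE) on the log2 scale, which is within its error. In control against WT the value turned on the WT library, at -0.08 ± 0.40 (SE, edgeR adjusted p = 0.891) with both. It was -0.62 (adjusted p = 0.0121) without WT replicate 1 and 0.80 (adjusted p = 0.00833) without WT replicate 2.

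The other receptors of the cluster were compared with these on the RPKM scale. TNFRSF10B, TRAIL receptor 2 and also a death-domain receptor, had 45.0 and 91.7 RPKM in MLL4 KO libraries, against 26.6 and 20.4 RPKM in WT libraries. It had 51.4 and 59.6 RPKM in BAP1 KO libraries, against 93.5 and 91.6 RPKM in control libraries. It stood above TNFRSF10A in every library, and above TNFRSF10D in every library except WT replicate 2. TNFRSF10B made up 61.4% and 76.2% of the summed RPKM of the 4 receptors in MLL4 KO libraries, 47.7% and 28.1% in WT libraries, 59.2% and 66.4% in BAP1 KO libraries, and 70.5% and 69.2% in control libraries. TNFRSF10C, a decoy anchored by a lipid, stayed at 4.25 RPKM or below and had 0 reads in WT replicate 2, in a library where a floor of 3 counts is 0.0937 CPM, against 121 reads in WT replicate 1. The genes of the cluster are close paralogs, so reads may be split between them in a way the counts do not show.

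**Figure D3:**
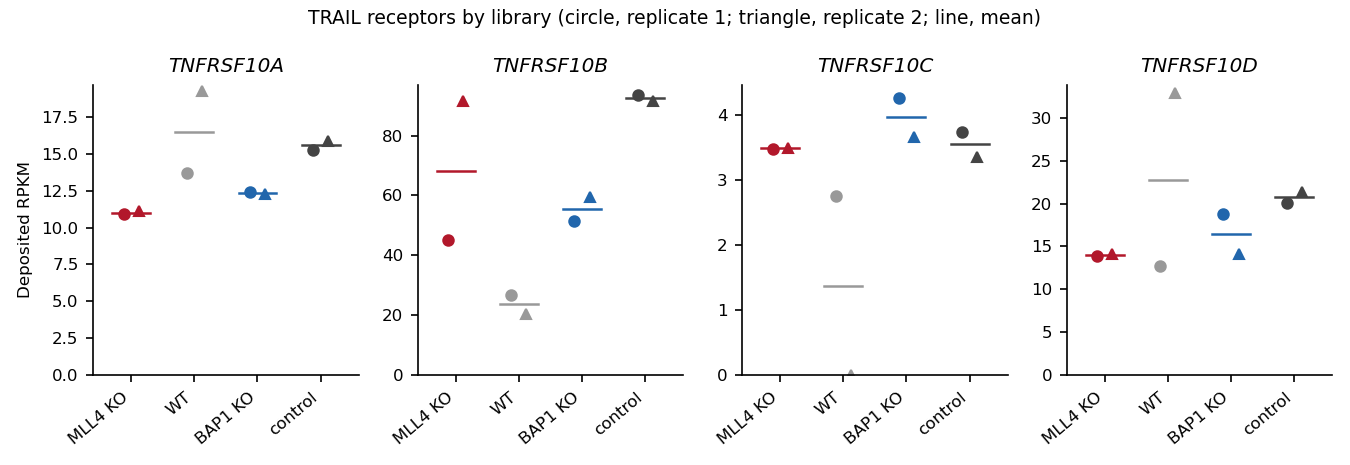
Deposited RPKM of the 4 TRAIL receptor genes of the chromosome 8 cluster by library, on axes that start at 0 with a different range in each panel; circles are replicate 1, triangles replicate 2 and lines the mean of 2. TNFRSF10B spans 20.4 to 93.5 RPKM, and WT replicate 2 stands apart with the highest TNFRSF10D (32.9 RPKM) and no TNFRSF10C.

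TNFRSF12A, the receptor of the ligand TWEAK (TNFSF12), has a short cytoplasmic tail without a death domain and lies at chr16:3020368-3022383. It had 139 and 188 CPM in MLL4 KO libraries, against 108 and 136 CPM in WT libraries. The lower MLL4 KO library lay just above the higher WT library, and the log2 fold change was 0.42 ± 0.21 (SE). The BAP1 KO libraries held 105 and 156 CPM, against 175 and 185 CPM in control libraries. The BAP1 KO libraries lay below both control libraries (-0.47 ± 0.21 SE), by -0.21 without BAP1 KO replicate 1 and -0.78 without BAP1 KO replicate 2. Its ligand TNFSF12 had the highest mean RPKM among the ligands outside the members, with TNFSF18 next. TNFSF12 was not called in MLL4 KO (-0.10 ± 0.26 SE, edgeR adjusted p = 0.815) or in BAP1 KO (0.67 ± 0.26 SE, adjusted p = 0.0913).

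TNFRSF21 encodes death receptor 6 and lies at chr6:47231532-47309905. It had 49.8 and 79.4 CPM in MLL4 KO libraries, against 98.0 and 69.4 CPM in WT libraries, and the groups overlapped (-0.37 ± 0.25 SE). In BAP1 KO libraries it had 47.2 and 62.6 CPM, against 126 and 129 CPM in control libraries. Both BAP1 KO libraries lay far below both control libraries, at 54.9 ± 10.9 CPM in BAP1 KO against 128 ± 1.77 CPM in control (SD, n = 2 each), a log2 fold change of -1.22 ± 0.25 (SE). Without BAP1 KO replicate 1 or 2 that change stayed between -1.44 and -1.03. TNFRSF12A and TNFRSF21 were not called in control against WT (0.56 ± 0.21 SE with adjusted p = 0.062, and 0.61 ± 0.24 SE with adjusted p = 0.0787). With 1 MLL4 KO library left out, TNFRSF12A (adjusted p 0.0406 to 0.0457) and TNFRSF21 (0.0307 to 0.0309) were called there, and TNFRSF12A also with 1 BAP1 KO library left out (0.0415). Both were called with DESeq2 (0.0334 for TNFRSF12A and 0.0364 for TNFRSF21), and TNFRSF12A also with upper-quartile scaling (0.0399), the 4 libraries alone (0.0246) and the replicate block (0.0145). TNFRSF11B encodes osteoprotegerin, a decoy for the ligand TNFSF11, and had 1 read in all, in control replicate 1. The other 7 libraries had 0 reads, and a floor of 3 counts is 0.0683 to 0.118 CPM over the 8 libraries.

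Among the ligands, TNFSF4 encodes OX40 ligand, a costimulator of T cells that is best known from antigen-presenting cells. It had 30.2 and 19.6 CPM in BAP1 KO libraries, from 948 and 549 reads, against 0.705 and 0.974 CPM in control libraries, from 18 and 38 reads. Both BAP1 KO libraries lay far above both control libraries, with a log2 fold change of 4.85 ± 0.51 (SE), a 28.8-fold difference. In MLL4 KO libraries TNFSF4 had 2.21 and 4.52 CPM, against 1.40 and 0.312 CPM in WT libraries. Both MLL4 KO libraries lay above both WT libraries, but the log2 fold change of 2.02 ± 0.61 (SE) rested on 36 and 10 reads in WT and was 1.23 without WT replicate 2 and 3.37 without WT replicate 1. Both of its transcript rows with reads gave nearly the same ratio of mean RPKM for BAP1 KO over control, 30.8 and 30.9. By RPKM it ranked 7000 and 8716 among 28105 genes in BAP1 KO libraries, against 16125 and 15692 in control libraries. Control against WT gave 0.10 ± 0.77 (SE, edgeR adjusted p = 0.933). The span of TNFSF4 overlaps 5 other RefSeq genes. Whether their reads enter its counts was not tested.

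TNFSF18 is no member. It encodes the ligand of TNFRSF18 (GITR) and its start lies 154.6 kb from the TNFSF4 start used here. It had 90.4 and 54.4 CPM in BAP1 KO libraries, against 0.744 and 0.359 CPM in control libraries. Both BAP1 KO libraries, with 2834 and 1527 reads, lay far above both control libraries, with 19 and 14 reads. The log2 fold change was 7.12 ± 1.86 (SE), with an edgeR adjusted p of 0.0509 that misses the threshold of 0.05. Of 20 alternatives 8 passed the threshold, among them DESeq2 (0.00135) and the 4 libraries of the comparison alone (0.000342). The other 12 did not, among them limma-voom (0.0997), the replicate block (0.0689) and every fit without a BAP1 KO or control library (0.0786 to 0.284). Over the 20 the adjusted p ranged from 0.000342 to 0.284 and the log2 fold change from 6.58 to 7.64. In MLL4 KO libraries TNFSF18 had 0.455 and 15.4 CPM, against 2.68 and 0.0625 CPM in WT libraries, with replicates that lay far apart in both groups (2.59 ± 1.76 SE, adjusted p = 0.347, and -1.44 without MLL4 KO replicate 2). ANKRD45, the other tested gene within 500 kb of that TNFSF4 start and named after its values were seen, was not called in either knockout. TNFRSF4, the receptor of TNFSF4, did not pass the count filter.

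TNFSF9 encodes the ligand of TNFRSF9, another T cell costimulator, and lies at chr19:6531026-6535924. It had 26.6 and 25.1 CPM in MLL4 KO libraries, against 31.4 and 25.5 CPM in WT libraries, a log2 fold change of -0.14 ± 0.16 (SE). In BAP1 KO libraries it had 18.7 and 23.6 CPM, against 19.7 and 21.5 CPM in control libraries, a log2 fold change of 0.03 ± 0.17 (SE). The libraries overlapped in both comparisons, and these were the smallest log2 fold changes among the 8 members. In control against WT it stood just above the threshold (-0.46 ± 0.17 SE, edgeR adjusted p = 0.0516), and it was called without WT replicate 2 (0.0305), with RLE scaling (0.0453) and with DESeq2 (0.043). Its receptor gene TNFRSF9 had 8 and 18 reads in BAP1 KO libraries, against 41 and 54 reads in control libraries. TNFSF10 encodes TRAIL, the ligand of TNFRSF10A to TNFRSF10D, and had 7 reads in all. They were 0 and 2 reads in MLL4 KO libraries, 0 in both WT libraries, 0 and 2 in BAP1 KO libraries, and 1 and 2 in control libraries, all under the floor of 3 counts per library.

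**Figure D4:**
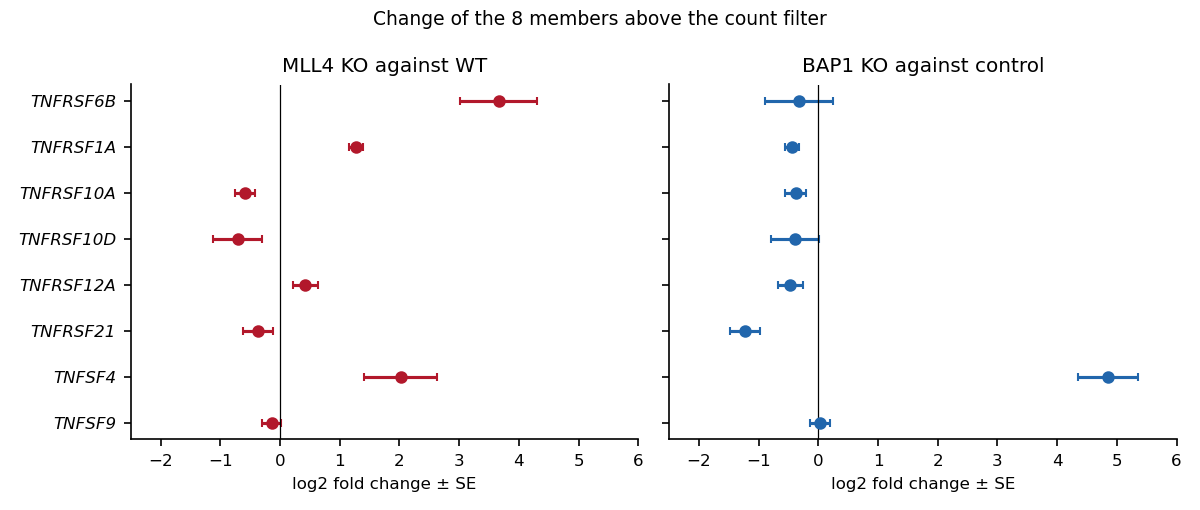
Log2 fold change with SE of the 8 members above the count filter in MLL4 KO against WT (left panel) and BAP1 KO against control (right panel), receptors above ligands. TNFRSF6B is at 3.66 and TNFRSF1A at 1.27 in MLL4 KO and at -0.32 and -0.44 in BAP1 KO, and TNFSF4 is at 2.02 in MLL4 KO and 4.85 in BAP1 KO.

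The rest of the pathway was followed in 5 lists of 89 genes, of which 71 were tested. In MLL4 KO against WT 12 of 71 were called (7 higher, 5 lower), 16.9% where 19.1% of all tested genes were called, with a median log2 fold change of 0.09. The count was 3 without MLL4 KO replicate 2, 2 without WT replicate 2, 4 without either control library and 1 (NGFR) in a fit to the 4 libraries alone. Every MLL4 KO call of the lists named below, apart from that of NGFR, was thus lost in the fit to the 4 libraries alone. In BAP1 KO against control 13 of 71 were called (6 higher, 7 lower), 18.3% where 22.4% of all tested genes were called, with a median of 0.01. TNFRSF9, 1 of the 13, passed the count filter only through control, where it is high, so nothing is read from its call. The count was 5 without BAP1 KO replicate 1, 7 without BAP1 KO replicate 2, 4 without either control library and 28 in a fit to the 4 libraries alone, which held all 13. Both shares lie near the background, so the lists as a whole are not set apart. Control against WT called 29 of the 71 (40.8%, against 39.6% of all tested genes). A change in BAP1 KO against control can therefore differ from one against WT.

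Of the 15 other ligands 6 were tested, and 1 was called. The share called was 16.7% in MLL4 KO and 0.0% in BAP1 KO, against 19.1% and 22.4% of all tested genes. EDA, the ligand ectodysplasin A, was higher in MLL4 KO (0.67 ± 0.19 SE, edgeR adjusted p = 0.0387). Its call was lost with any library left out but WT replicate 1 (adjusted p 0.0595 to 0.18), and none of the 6 was called in BAP1 KO. Of the 22 other receptors 14 were tested. In MLL4 KO 3 of them were higher and none lower (21.4%, against 19.1% of all tested genes), with a median of 0.49. In BAP1 KO 3 were higher and 3 lower (42.9%, against 22.4% of all tested genes), with a median of 0.24, and TNFRSF9 is 1 of the 3 lower ones.

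NGFR, the low-affinity neurotrophin receptor, rose in both knockouts. It had 39.2 and 44.5 CPM in MLL4 KO libraries, against 16.3 and 11.4 CPM in WT libraries (1.60 ± 0.18 SE, edgeR adjusted p = 0.0032). It had 54.0 and 54.2 CPM in BAP1 KO libraries, against 3.45 and 2.82 CPM in control libraries (4.12 ± 0.21 SE, adjusted p = 1.07e-05). Both calls held in all 20 alternatives. NGFR was lower in control than in WT (-2.15, adjusted p = 0.000133), and both BAP1 KO libraries lay above both WT libraries too. TNFRSF10B rose in MLL4 KO with 224 and 465 CPM, against 130 and 103 CPM in WT (1.56 ± 0.31 SE, adjusted p = 0.0184). That call was lost without WT replicate 2 (log2 fold change 1.4) and in the edgeR fit to the 4 libraries alone (adjusted p = 0.0869). In BAP1 KO TNFRSF10B had 257 and 302 CPM, against 492 and 476 CPM in control, and did not pass the test (-0.79 ± 0.30 SE, adjusted p = 0.1). Control stood above WT for TNFRSF10B (2.05, adjusted p = 0.00189). TNFRSF25, a death receptor, also rose in MLL4 KO (0.54 ± 0.14 SE, adjusted p = 0.0308). That call was lost without MLL4 KO replicate 2, WT replicate 2 or either control library (0.0735 to 0.127).

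Besides TNFRSF9, the receptors called lower in BAP1 KO were LTBR and FAS. Control against WT gave 0.72 for LTBR (log2, edgeR adjusted p = 0.00095), with WT libraries at 93.6 and 100 CPM. It gave -0.86 for RELT (adjusted p = 0.00163). LTBR, the lymphotoxin beta receptor, had 102 CPM in both BAP1 KO libraries, against 155 and 164 CPM in control libraries (-0.65 ± 0.11 SE, edgeR adjusted p = 0.00321, and 0.0539 without control replicate 2). FAS, the death receptor for FAS ligand, had 4.24 and 6.52 CPM in BAP1 KO libraries, against 9.67 and 11.7 CPM in control libraries (-1.0 ± 0.27 SE, adjusted p = 0.0277). The FAS call was lost without BAP1 KO replicate 1 or either control library (0.0851 to 0.21). TNFRSF19, an orphan receptor of the family, rose from a low level (1.98 ± 0.36 SE, adjusted p = 0.00514). It had 3.35 and 2.71 CPM in BAP1 KO libraries, against 0.47 and 0.974 CPM in control libraries, and WT libraries had 1.43 and 1.5 CPM. The TNFRSF19 call was lost without BAP1 KO replicate 1 (log2 fold change 1.82) or control replicate 1 (1.63). RELT rose as well (0.51 ± 0.14 SE, adjusted p = 0.0323), a call lost without any 1 of the BAP1 KO and control libraries (0.104 to 0.238).

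Of the 22 adaptors and ubiquitin enzymes, all tested, 1 was called in MLL4 KO (lower) and 4 in BAP1 KO (1 higher, 3 lower). These are 4.55% and 18.2% of the list, against 19.1% of all tested genes in MLL4 KO and 22.4% in BAP1 KO. BIRC3, the ubiquitin ligase cIAP2 that binds TRAF2, had 4.66 and 3.67 CPM in BAP1 KO libraries, against 18.5 and 18.7 CPM in control libraries. It fell by 2.15 on the log2 scale (SE 0.24, edgeR adjusted p = 0.000507), in all 20 alternatives. In MLL4 KO it had 3.12 and 4.10 CPM, against 4.03 and 2.56 CPM in WT, with overlap (adjusted p = 0.753). BIRC3 was also higher in control than in WT, by 2.51 on the log2 scale (adjusted p = 0.000134). Its BAP1 KO and WT libraries overlapped. The adaptors TRAF5 (-0.95 ± 0.21 SE, adjusted p = 0.0106) and TRAF4 (-0.36 ± 0.11 SE, adjusted p = 0.0389) fell in BAP1 KO, and TAB2, which links TRAF6 to the kinase TAK1, rose (0.45 ± 0.12 SE, adjusted p = 0.0236). The calls of TRAF4 and TAB2 were lost without any 1 of the 4 libraries (0.0853 to 0.234), that of TRAF4 also with no filter (0.0537), the replicate block (0.0622) and summed rows (0.061), and that of TRAF5 without BAP1 KO replicate 2 or either control library (0.0566 to 0.0985). TRAF2 was lower in MLL4 KO (-0.61 ± 0.15 SE, adjusted p = 0.0269), a call lost without MLL4 KO replicate 2, WT replicate 2 or either control library (0.0603 to 0.138).

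Of 18 tested genes of the death receptor and apoptosis machinery, 2 were called in each knockout, 11.1% against 19.1% of all tested genes in MLL4 KO and 22.4% in BAP1 KO. APAF1, the scaffold on which cytochrome c activates caspase-9, had 66.9 and 43.3 CPM in BAP1 KO libraries, against 14.4 and 13.8 CPM in control libraries. It rose by 1.97 ± 0.22 (log2, SE; edgeR adjusted p = 0.000487), in all 20 alternatives. WT libraries had 28.7 and 24.5 CPM of APAF1, and control against WT gave -0.92 (log2, adjusted p = 0.00947). MLKL, the pore-forming protein of necroptosis, fell in BAP1 KO (-0.72 ± 0.22 SE, adjusted p = 0.0455), and its call was lost without any 1 of the 4 libraries (0.105 to 0.235), with limma-voom (0.0536), the replicate block (0.0628) and summed rows (0.0571). In MLL4 KO BCL2L1, which encodes the apoptosis inhibitor BCL-XL, rose (0.59 ± 0.16 SE, adjusted p = 0.0351), a call lost with any library left out but MLL4 KO replicate 1 (0.0574 to 0.163). CYCS, cytochrome c, fell in MLL4 KO (-0.77 ± 0.18 SE, adjusted p = 0.0225, and 0.0527 to 0.128 without MLL4 KO replicate 2, WT replicate 2 or either control library).

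Of 11 NF-kB subunits, inhibitors and kinases, 5 were called in MLL4 KO (2 higher, 3 lower, median -0.10) and 1 in BAP1 KO. These are 45.5% and 9.09% of the list, against 19.1% of all tested genes in MLL4 KO and 22.4% in BAP1 KO. NFKBIA, the inhibitor that holds NF-kB in the cytoplasm, had 33.1 and 35.7 CPM in MLL4 KO libraries, against 20.0 and 20.5 CPM in WT libraries. It rose by 0.76 ± 0.13 (log2, SE; edgeR adjusted p = 0.0104), with no library left out ending the call and an adjusted p of 0.0846 in the fit to the 4 libraries alone. NFKB2, which encodes the subunit of the non-canonical pathway, rose (0.71 ± 0.18 SE, adjusted p = 0.0286), and the kinase CHUK fell (-0.81 ± 0.20 SE, adjusted p = 0.0259). Both calls were lost without MLL4 KO replicate 2, WT replicate 2 or either control library (0.0569 to 0.15). The inhibitor NFKBIB fell (-0.80 ± 0.16 SE, adjusted p = 0.0165, and 0.0683 to 0.0897 without MLL4 KO replicate 2 or WT replicate 2). IKBKG, the regulatory subunit of the IKK complex, fell (-0.47 ± 0.13 SE, adjusted p = 0.0365), a call lost with any library left out but WT replicate 1 (0.0582 to 0.157), with upper-quartile scaling (0.0663), the replicate block (0.0587) and the 4 libraries alone (0.15). In BAP1 KO the inhibitor NFKBIE rose (0.65 ± 0.21 SE, adjusted p = 0.049), a call lost with any library left out but those of WT (0.0566 to 0.239), and with RLE scaling (0.0507), limma-voom (0.0584), no filter (0.0538) and summed rows (0.0749).

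**Figure D5:**
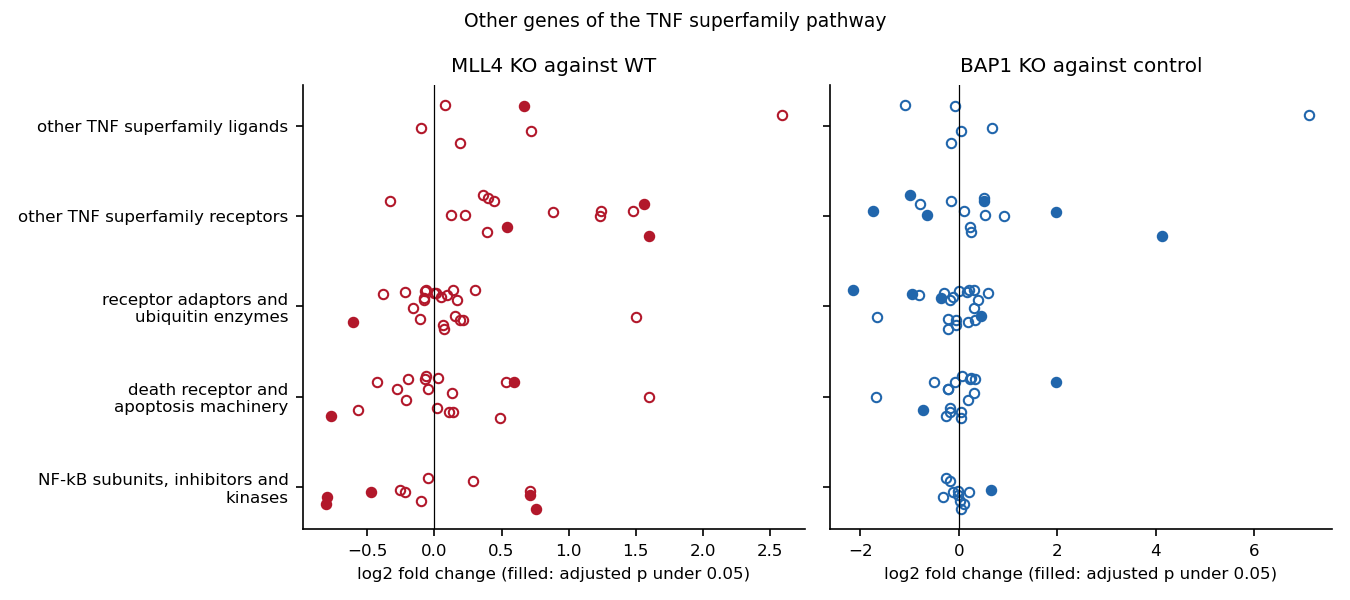
Log2 fold change of the tested genes of the 5 pathway lists in MLL4 KO against WT (left panel) and BAP1 KO against control (right panel); each point is 1 gene, filled where the edgeR adjusted p is under 0.05, and the panels have different ranges. NGFR is the filled point at 1.60 in MLL4 KO and 4.12 in BAP1 KO, and the open point at 7.12 in BAP1 KO is TNFSF18.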

How the data were processed

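Per the labels' protocols, poly(A) RNA was selected from total RNA of HCT116 cells for RNA-seq. Each deposited table gives a read count and an RPKM value per RefSeq transcript, per the file headers. The authors left the counts unnormalized, and the deposited RPKM values are scaled to library size and to the length of the transcript. Named in the submitters' processing notes are hg38, bcl2fastq, Bowtie2, STAR and SICER 1.1, without roles. How reads were counted, and with which strand setting, was not given in the sources used here. The members, the pathway lists and the tests were chosen with earlier results of these data known.

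Transcripts were matched to symbols of GRCh38.p14, leaving out 605 of 88819 rows with no symbol (0.23% to 0.252% of counts). The row with the highest mean count stood for each gene. The test was edgeR 4.0.16 (R 4.3.3) on the counts of all 8 libraries (filterByExpr, TMM scaling, robust quasi-likelihood, Benjamini-Hochberg over 16831 genes, threshold 0.05). CPM values are TMM-scaled, SDs are over 2 libraries, and each SE is the log2 fold change divided by the root of its F statistic. Floors (3 counts per library) cover counting error only, while the SDs and SEs take in the spread between libraries. Genes named besides the members are the targeted genes, the neighbours of TNFRSF6B, up to 4 called genes per list, knockout and direction with the smallest p, and the ligands and receptors outside the members with the highest RPKM. The alternatives were DESeq2 1.42.0, limma-voom (limma 3.58.1), upper-quartile and RLE scaling, no filter, a filter of 1 CPM in 4 libraries, the 4 libraries of a comparison alone, a replicate block, summed or longest transcript rows and each library left out. A crossed block and the legacy dispersion were added after seeing the data.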

Additional observations from a re-analysis of the deposited data

Results flagged for a closer look

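For 3 members every library of one knockout moved one way against its own group and every library of the other knockout the opposite way. The log2 fold change in MLL4 KO minus that in BAP1 KO was 3.98 for TNFRSF6B, 1.71 for TNFRSF1A and 0.89 for TNFRSF12A. Each knockout has its own unedited group, so these values take in the gap between control and WT. That gap was 2.69 for TNFRSF6B, 0.87 for TNFRSF1A and 0.56 for TNFRSF12A (log2, control against WT). For TNFRSF6B the change in BAP1 KO (-0.32 ± 0.57 SE) is smaller than its error. For TNFRSF12A the lower MLL4 KO library (139 CPM) lay just above the higher WT library (136 CPM). Its change in MLL4 KO was 0.42, and 0.21 without MLL4 KO replicate 2. Of all tested genes 18.5% moved in opposite directions in the knockouts with no overlap in either. These differences were not tested, because the genes were listed with both changes known.

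Of 31 other named genes the difference of the knockout effects itself passed edgeR's quasi-likelihood test (adjusted p under 0.05) for 13. Of the 31, 24 were named because they were called in a knockout, which favours a difference, so nothing is read from the count. The log2 difference was positive for TNFRSF10B (2.35, adjusted p = 0.0123), BIRC3 (2.29, 0.00497), FAS (1.36, 0.0395), LTBR (0.88, 0.00662), STMN3 (0.8, 0.0157), ARFRP1 (0.79, 0.0432) and NFKBIA (0.73, 0.0268). It was negative for NGFR (-2.52, 0.00109), APAF1 (-1.44, 0.0142), RELT (-0.84, 0.0225), TRAF2 (-0.79, 0.0395) and RTEL1 (-0.78, 0.0199). The remaining gene, RTEL1-TNFRSF6B, shares its reads with TNFRSF6B, so its difference of 2.28 is not separate from that of the member and is given as a description. All these differences take in the gap between control and WT, so they do not compare the levels of the knockouts directly. RELT had means of 21.3 CPM in MLL4 KO and 21.1 CPM in BAP1 KO, while STMN3 had 337 and 221 CPM.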

How the results depend on the processing

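The fit to the 4 libraries of a comparison alone called 60 genes in MLL4 KO against WT and 6660 in BAP1 KO against control, 1 and 28 pathway list genes, and put 1 and 5 members past the threshold. Leaving out 1 library gave 530 to 5290 calls in MLL4 KO, 1075 to 5014 in BAP1 KO and 3253 to 7269 in control against WT, with 2 to 15 and 4 to 19 pathway list genes and 1 to 5 and 1 to 4 members past the threshold in MLL4 KO and BAP1 KO. The KMT2D log2 fold change in MLL4 KO was -0.01 with limma-voom and -0.26 to 0.26 with a library left out, and that of BAP1 in BAP1 KO was -0.05 to 0.18. Of other results not called with all libraries, the sign changed for control against WT in TNFRSF10A (0.04 with upper-quartile scaling, -0.27 to 0.28 with a library left out), TNFRSF10D (0.08 with limma-voom, -0.62 to 0.8, called at both ends), TNFSF4 (-0.69 to 1.45) and TNFSF18 (0.33 with limma-voom, -2.36 to 2.97), for TNFSF18 (-1.44 to 6.84) and ARFRP1 (-0.04 to 0.3) in MLL4 KO, and for RTEL1 in BAP1 KO (-0.03 to 0.16). Among the untested changes of members in the knockouts, the sign changed over the alternatives for TNFRSF10D in MLL4 KO (-1.25 to 0.17). It also changed for TNFSF9 in MLL4 KO (-0.28 to 0.02) and in BAP1 KO (-0.14 to 0.2). The cause of these sign changes was not tested. Equal replicate numbers do not pair the libraries (correlations of deviations from the group means -0.189 to 0.0553); the replicate block gave 2360, 3312 and 6194 calls in MLL4 KO, BAP1 KO and control against WT, 10 and 11 pathway list genes, and 2 and 4 members past the threshold, and it ended the calls of EDA, IKBKG, TRAF4 and MLKL. With the MLL4 KO numbers crossed, the block gave 3367, 3796 and 6678 calls. Depth limits the low genes TNFSF4, TNFSF18 and TNFRSF9, with 36 and 10, 69 and 2, and 2 and 2 reads in WT libraries.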
